A study of Rattus norvegicus with 11 samples.

Results

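The genes described here are 8 members of the circadian clock, Per1, Per2, Per3, Dbp, Nr1d1, Nr1d2, Arntl and Clock. They were chosen by their Ensembl gene identifiers, and all 8 were among the 15607 genes of the deposited table. Poly(A) RNA was sequenced from tissue punches of the medial prefrontal cortex (mPFC) in Sprague-Dawley rats aged 2 to 3 months, of which 4 were male, 3 were proestrus females and 4 were diestrus females. The labels give no treatment, surgery or transgene for any group, and each library came from 1 animal. Ovarian hormones peak before ovulation in proestrus and are low in diestrus. By the study's methods, the stages were collected at different times: diestrus tissue near the start of that stage's first day, and proestrus tissue soon after midday. Males lived in another room, and their collection days matched those of the females. Cagemates at the same stage were killed together, so some females of a group may share a cage. The labels give no hour for any animal. Cycle stage and hour of collection therefore cannot be told apart in any comparison of proestrus with diestrus. In comparisons with males, sex, room and any difference in hour cannot be told apart either.

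The mammalian clock is a feedback loop of transcription. CLOCK and its partner, the protein encoded by Arntl and also called BMAL1, bind E-box sequences and switch on Per1, Per2, Per3, Dbp, Nr1d1 and Nr1d2. The PER proteins repress CLOCK and BMAL1, the REV-ERB receptors encoded by Nr1d1 and Nr1d2 repress Arntl through ROR/REV-ERB response elements, and DBP acts through D-box sequences. Transcripts of these genes rise and fall over the day in many tissues, cortex included, with Arntl in the opposite phase to its targets.

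Values are normalized read counts, that is reads assigned uniquely to a gene and divided by a size factor for the library. Libraries held 15.9 to 24.6 M assigned reads. Members were compared on the log2(normalized count + 1) scale with limma fitted over all 15607 genes, and a gene was called where its Benjamini-Hochberg adjusted p was below 0.05. The p-values measure the spread between these libraries. In bulk tissue, fewer cells of a type and less RNA per cell cannot be told apart. The tissue and its cell types were not checked against markers here, because neither the deposited tables nor the reference pair identifiers with symbols, and the part of the study's gene annotation held here covers 4 of the 22 markers listed.

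A RefSeq promoter window, from 250 bases before to 50 bases after an annotated start in the GRCr8 build, was matched by symbol for 8 of 8 members, Arntl under its RefSeq symbol Bmal1. The Clock windows belong to the RefSeq gene Clock, which may not be the locus counted here under that name. Nr1d1 and Clock have more than 1 annotated start, which gave 10 windows in all. Both strands were searched for 4 motifs of the clock and of light-driven transcription: the E-box CACGTG, the D-box TTANGTAA, the ROR/REV-ERB core AGGTCA and the CRE core TGACGT. A match was found for 4 of the 8 genes in their 10 windows, and the matches did not overlap each other. The share of all windows that hold any of the 4 motifs was not counted. The 4 of 8 is therefore not a result about the clock genes as a group. The 250 upstream bases of those windows are shown because they hold a match, with the motif in capitals. Only the exact letters given were searched, so variant forms of these elements stay in lower case.
Per2, GRCr8 chr9:99496994-99497243, minus strand: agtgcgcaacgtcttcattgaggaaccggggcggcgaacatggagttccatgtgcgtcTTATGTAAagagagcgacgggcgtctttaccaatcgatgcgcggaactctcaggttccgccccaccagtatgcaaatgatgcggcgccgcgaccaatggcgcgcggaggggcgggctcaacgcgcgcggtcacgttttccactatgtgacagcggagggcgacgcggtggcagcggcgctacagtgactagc
Nr1d1, GRCr8 chr10:84229455-84229704, minus strand: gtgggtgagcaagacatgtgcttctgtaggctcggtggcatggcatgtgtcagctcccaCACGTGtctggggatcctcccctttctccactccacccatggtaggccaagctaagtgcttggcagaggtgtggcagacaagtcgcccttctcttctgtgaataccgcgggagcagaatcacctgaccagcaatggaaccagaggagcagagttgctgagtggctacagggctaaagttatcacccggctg
Nr1d2, GRCr8 chr15:9954784-9955033, plus strand: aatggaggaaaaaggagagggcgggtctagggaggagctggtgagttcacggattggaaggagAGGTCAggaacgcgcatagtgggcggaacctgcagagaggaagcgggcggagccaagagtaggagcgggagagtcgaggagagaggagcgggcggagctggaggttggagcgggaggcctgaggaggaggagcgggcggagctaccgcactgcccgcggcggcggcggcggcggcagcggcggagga
Arntl (Bmal1), GRCr8 chr1:176766078-176766327, plus strand: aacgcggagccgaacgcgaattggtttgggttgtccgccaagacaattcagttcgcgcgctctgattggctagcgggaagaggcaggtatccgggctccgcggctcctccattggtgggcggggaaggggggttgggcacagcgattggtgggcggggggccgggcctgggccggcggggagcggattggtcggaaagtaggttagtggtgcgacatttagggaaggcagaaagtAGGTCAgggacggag
The capitals mark a D-box in Per2 with its first base at -192 from the start, an E-box at -191 in 1 of the Nr1d1 windows, and an AGGTCA core at -187 in Nr1d2 and at -15 in Arntl. Over all 33469 RefSeq promoter windows of the same length, 6.42% held the E-box, 2.24% the D-box, 16.2% the ROR/REV-ERB core and 7.94% the CRE core, which no member held. A match describes the letters of the window and not a bound site, and the expression data do not bear on binding.

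Between the female stages, Nr1d2 was the 1 member of 8 that passed the test, with a higher level in proestrus. Over all genes 2.53% were called in this comparison, and 2.45% with a higher level in proestrus. edgeR's quasi-likelihood test also called Nr1d2 alone (edgeR adjusted p = 0.0384), beside 2.7% of all genes. Nr1d2 (ENSRNOG00000046912) encodes REV-ERB beta, a nuclear receptor that represses Arntl. The symbol rests on the chosen identifier, because the part of the study's gene annotation held here does not cover it. Nr1d2 was a low gene, with 25 to 151 reads per library, and 30.7% of all genes had a mean no higher. Its normalized count was 24.5, 28.3, 43.2 and 59.4 in diestrus replicates 2, 3, 4 and 5. In proestrus replicates 1, 3 and 5 it was 149, 143.5 and 114. Every proestrus sample lay above every diestrus sample, and the lowest proestrus value was above the highest diestrus value by more than the SD of either group. The group means were 38.9 ± 15.9 (SD, n = 4) in diestrus and 135 ± 18.6 (SD, n = 3) in proestrus, a ratio of 3.48. The log2 difference was 1.85 (SE 0.42, 95% confidence interval 0.96 to 2.74), with a limma adjusted p of 0.0396.

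The size of the Nr1d2 difference held when single libraries were left out, and the call did not. In the 8 fits without the call the log2 difference stayed between 1.66 and 1.97, and the genes called over all 15607 fell from 395 to between 0 and 152. The call was lost when proestrus replicate 1, 3 or 5 was left out (limma adjusted p = 0.19, 0.135 and 0.114), or diestrus replicate 2, 3 or 4 (limma adjusted p = 0.129, 0.119 and 0.0616). It was also lost without male replicate 2 or 5, which enter the fit through the shared spread (limma adjusted p = 0.0579 and 0.0547). The call held without diestrus replicate 5, male replicate 3 or male replicate 4 (limma adjusted p = 0.0158, 0.0078 and 0.0158), where 1774, 1147 and 647 genes were called. The lowest library held 25 Nr1d2 reads, for which counting alone gives an error of 20% of the value.

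In males, Nr1d2 spanned most of the range seen in females. The values were 44.7, 33.0, 135 and 96.8 in male replicates 2, 3, 4 and 5, with a mean of 77.3 ± 47.3 (SD, n = 4). Replicates 2 and 3 lay within the diestrus range and replicate 4 within the proestrus range, so males overlapped with both stages. The log2 difference from males was 1.01 in proestrus (SE 0.42, 95% confidence interval 0.11 to 1.90, limma adjusted p = 0.418). In diestrus it was -0.84 (SE 0.39, 95% confidence interval -1.67 to -0.01, limma adjusted p = 0.508), and it moved to -0.51 without male replicate 4. Neither passed the test, and these comparisons share the 4 male libraries. With the edgeR-normalized table the proestrus difference, 1.00, passed it (limma adjusted p = 0.0498), where 106 of 15724 genes were called.

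**Figure D1:**
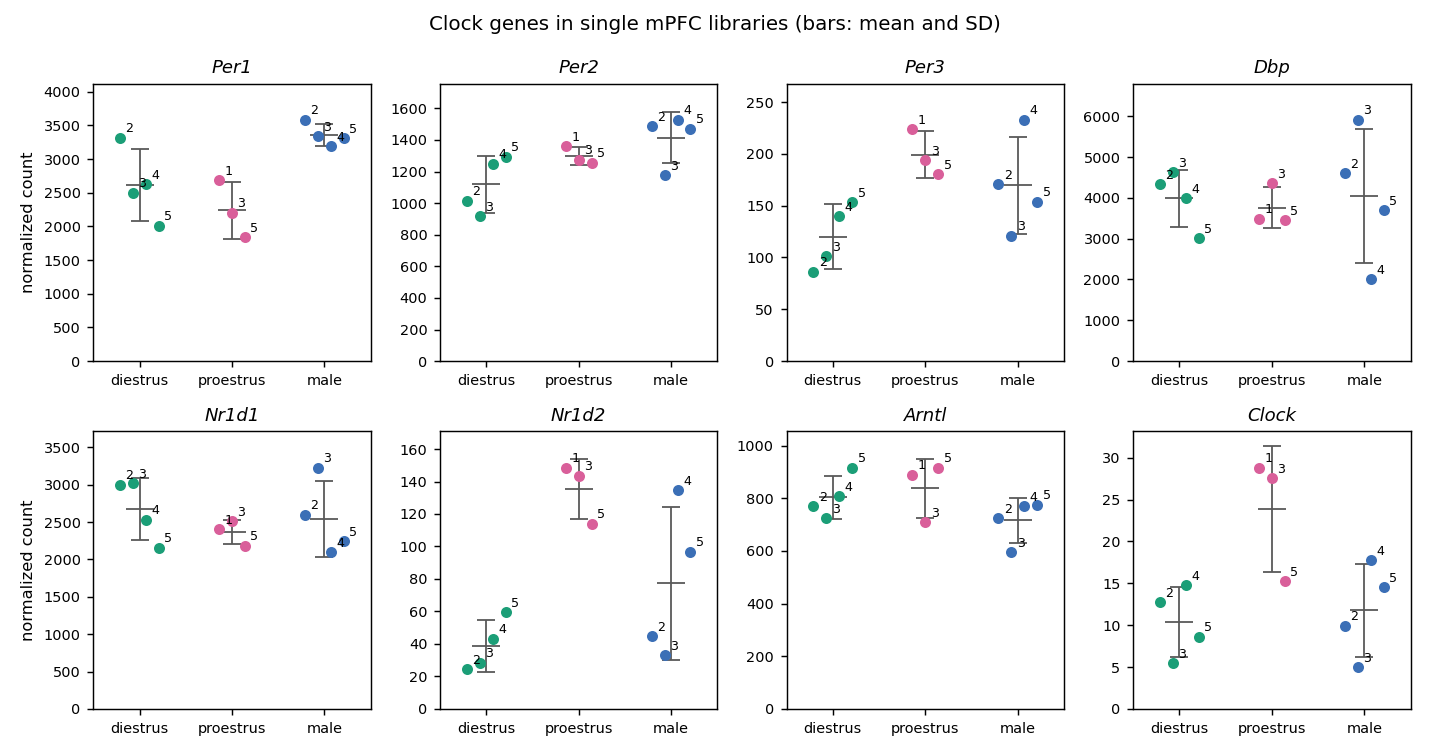
Normalized read counts (y axis, linear and starting at 0, one panel per gene) in diestrus, proestrus and male mPFC, with each point a library labelled by its replicate and each bar the group mean with its SD. Nr1d2, Per3 and Clock are higher in all 3 proestrus libraries than in the 4 diestrus libraries, while the male points of Nr1d2 run from 33.0 to 135.

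Nr1d1 (ENSRNOG00000009329), which encodes REV-ERB alpha, the paralog of REV-ERB beta, did not pass the test between the stages. Its normalized count was 3000.5, 3024, 2534 and 2157 in diestrus replicates 2, 3, 4 and 5. It was 2404, 2513 and 2186 in proestrus replicates 1, 3 and 5, and 2599, 3231, 2095 and 2248 in male replicates 2, 3, 4 and 5. The 3 groups overlapped, and the highest and the lowest values of all 11 libraries both came from males, replicate 3 and replicate 4. The means were 2679 ± 415 (SD, n = 4) in diestrus, 2367 ± 166 (SD, n = 3) in proestrus and 2543 ± 505 (SD, n = 4) in males. The log2 difference between proestrus and diestrus was -0.17 (SE 0.14, 95% confidence interval -0.48 to 0.14, limma adjusted p = 0.446), and it ran from -0.27 without diestrus replicate 5 to -0.10 without diestrus replicate 3. The interval for Nr1d1 lay wholly below that for Nr1d2 in the same comparison.

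The ratio of the Nr1d1 to the Nr1d2 normalized count, which has no length correction and is read only between libraries, was 123, 107, 58.7 and 36.3 in diestrus replicates 2, 3, 4 and 5. It was 16.2, 17.5 and 19.2 in proestrus replicates 1, 3 and 5, and 58.1, 97.9, 15.5 and 23.2 in male replicates 2, 3, 4 and 5. Proestrus libraries were close to each other and below every diestrus library, and males covered nearly the whole range. Over the 11 libraries the log2 values of Nr1d1 and Nr1d2 had a Pearson r of -0.77 (Spearman rho -0.71, n = 11). The r was -0.89 after group means were removed and -0.68 without the 2 libraries farthest from the Nr1d1 median. Nr1d1 ranked 9492 of 11730 genes by r with Nr1d2, so many genes were more opposed to Nr1d2 than its paralog was. These correlations are descriptions over libraries that share groups and a normalization.

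Per1, Per2 and Per3 encode the Period proteins, the repressors of the loop. Per3 (ENSRNOG00000018413) was higher in each proestrus library than in any diestrus library. Its normalized count was 86.2, 101, 139.8 and 153 in diestrus replicates 2, 3, 4 and 5 and 224, 194 and 180.4 in proestrus replicates 1, 3 and 5. In male replicates 2, 3, 4 and 5 it was 171, 121, 233 and 154, values that overlapped with both stages. The means were 120.2 ± 31.5 (SD, n = 4) in diestrus, 199 ± 22.3 (SD, n = 3) in proestrus and 169.6 ± 46.9 (SD, n = 4) in males. The log2 difference between proestrus and diestrus was 0.76 (SE 0.22, 95% confidence interval 0.28 to 1.24), which did not pass the test (limma adjusted p = 0.0873). DESeq2 on the recovered reads called it (DESeq2 adjusted p = 0.0336), in a fit that called 7.63% of the genes it tested.

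Per1 (ENSRNOG00000007387), an immediate target of light and activity signals as well as of the clock, showed its widest gap between proestrus and males. The normalized count was 3582, 3341, 3187 and 3308 in male replicates 2, 3, 4 and 5. It was 2683, 2204 and 1837 in proestrus replicates 1, 3 and 5. In diestrus replicates 2, 3, 4 and 5 it was 3319.8, 2502, 2624 and 2011. Every proestrus library and 3 of the 4 diestrus libraries lay below every male library, and diestrus replicate 2 lay within the male range. Males were tightly grouped, with a mean of 3355 ± 166 (SD, n = 4), against 2241 ± 424 (SD, n = 3) in proestrus and 2614 ± 539.8 (SD, n = 4) in diestrus.

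In the limma fit the log2 difference in Per1 between proestrus and males was -0.60 (SE 0.15, 95% confidence interval -0.91 to -0.28, limma adjusted p = 0.224). That was 0 of 8 members called, beside 0.0833% of all genes, with 3 members at an unadjusted p below 0.05 beside 11.3% of all genes. The 3 became 1 without male replicate 2, male replicate 3 or proestrus replicate 1, where the count over all genes was 1276, 1015 and 889 in place of 1766. DESeq2 called Per1 alone of the 8, with a log2 difference of -0.58 (DESeq2 adjusted p = 0.0347), where it called 0.837% of the genes it tested. edgeR's quasi-likelihood test called 0 of the 8, beside 0.0833% of all genes. Per1 was also the only member whose proestrus and male libraries did not overlap, beside 13.3% of all genes.

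For diestrus against males the Per1 difference was -0.38 (SE 0.13, 95% confidence interval -0.67 to -0.09, limma adjusted p = 0.443). For all 7 females against males it was -0.47 (SE 0.13, 95% confidence interval -0.75 to -0.20, limma adjusted p = 0.428). Between proestrus and diestrus it was -0.22 (SE 0.15, 95% confidence interval -0.53 to 0.10, limma adjusted p = 0.333). That value was -0.08 without proestrus replicate 5, -0.09 without diestrus replicate 2, -0.33 without diestrus replicate 5 and -0.35 without proestrus replicate 1. None of these passed the test.

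Per2 (ENSRNOG00000020254), a core repressor of the loop, was lowest on average in diestrus. Its normalized count was 1015, 919, 1251 and 1294 in diestrus replicates 2, 3, 4 and 5 and 1360.5, 1275 and 1256 in proestrus replicates 1, 3 and 5. In male replicates 2, 3, 4 and 5 it was 1486, 1175, 1527 and 1471. Male replicate 3 stood apart from the other males and fell among the diestrus values, and the groups overlapped in every comparison. The means were 1120 ± 182 (SD, n = 4) in diestrus, 1297 ± 55.4 (SD, n = 3) in proestrus and 1415 ± 161 (SD, n = 4) in males. The largest difference was between diestrus and males, -0.34 on the log2 scale (SE 0.11, 95% confidence interval -0.59 to -0.10, limma adjusted p = 0.41). Between the stages it was 0.23 (SE 0.12, 95% confidence interval -0.04 to 0.49, limma adjusted p = 0.237), and 0.14 without diestrus replicate 3.

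The ratio of the Per1 to the Per2 normalized count, read only between libraries, was 3.27, 2.72, 2.1 and 1.55 in diestrus replicates 2, 3, 4 and 5, and 1.97, 1.73 and 1.46 in proestrus replicates 1, 3 and 5. In male replicates 2, 3, 4 and 5 it was 2.41, 2.84, 2.09 and 2.25. All proestrus ratios lay below all male ratios, whereas diestrus libraries spread on both sides of the males.

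**Figure D2:**
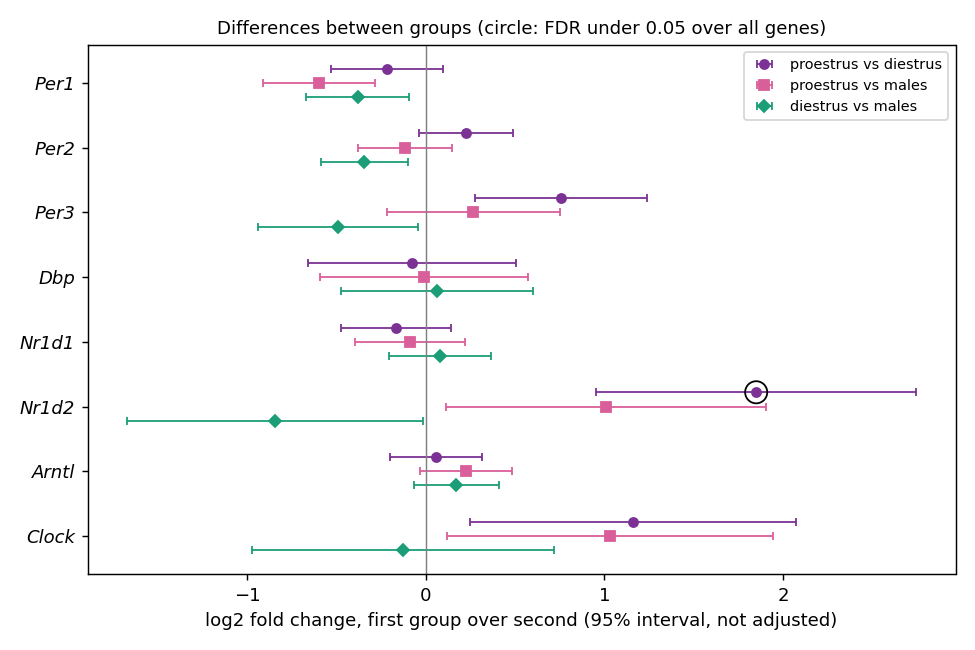
Log2 differences (x axis, limma on log2(normalized count + 1)) of the 8 genes for proestrus against diestrus, proestrus against males and diestrus against males, with bars for the 95% confidence interval. Nr1d2 in proestrus against diestrus, ringed at 1.85, is the difference that passed the adjusted threshold, and the comparisons with males share the 4 male libraries.

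Dbp (ENSRNOG00000021027), a transcription factor that is a direct output of the clock, had group means within 1 SD of each other and a wide spread in males. Its normalized count was 4606, 5912, 2000.1 and 3696 in male replicates 2, 3, 4 and 5. It was 4332, 4629.5, 3991.5 and 3018 in diestrus replicates 2, 3, 4 and 5 and 3484, 4354 and 3449 in proestrus replicates 1, 3 and 5. The highest and the lowest of all 11 values were male replicates 3 and 4. The means were 3993 ± 700.2 (SD, n = 4) in diestrus, 3763 ± 513 (SD, n = 3) in proestrus and 4053 ± 1643 (SD, n = 4) in males. Between the stages the log2 difference was -0.08 (SE 0.27, 95% confidence interval -0.66 to 0.50, limma adjusted p = 0.87), an interval that holds changes in either direction. The difference was -0.20 without diestrus replicate 5 and 0.0014 without diestrus replicate 3.

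Arntl (ENSRNOG00000014448), the positive arm of the loop, did not pass the test in any comparison. Its normalized count was 770, 725, 807 and 917 in diestrus replicates 2, 3, 4 and 5 and 890.4, 709.9 and 916 in proestrus replicates 1, 3 and 5. In male replicates 2, 3, 4 and 5 it was 724, 594, 769.5 and 775. Males held the lowest library and the groups overlapped throughout. The means were 805 ± 82.0 (SD, n = 4) in diestrus, 839 ± 112 (SD, n = 3) in proestrus and 716 ± 84.2 (SD, n = 4) in males. The log2 difference was 0.06 between the stages (SE 0.12, 95% confidence interval -0.20 to 0.31, limma adjusted p = 0.776) and 0.23 between proestrus and males (SE 0.12, 95% confidence interval -0.03 to 0.49, limma adjusted p = 0.483). The latter was 0.14 without male replicate 3 and 0.34 without proestrus replicate 3. The difference between the stages was 0.17 without proestrus replicate 3 and -0.012 without proestrus replicate 5.

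The identifier given as Clock (ENSRNOG00000002175) is uncertain. The study's own gene annotation, held here for 1258 genes and covering 1 of the 8 members, names it LOC100911602, a Clock-like locus, and uniquely assigned reads can be lost or split where a near-identical copy exists. It held 5 to 29 reads per library, and 5 reads carry a counting error of 44.7% of the value. The normalized count was 12.7, 5.45, 14.8 and 8.60 in diestrus replicates 2, 3, 4 and 5, and 28.8, 27.6 and 15.3 in proestrus replicates 1, 3 and 5. In male replicates 2, 3, 4 and 5 it was 9.93, 5.0, 17.7 and 14.5. Proestrus libraries lay above all diestrus libraries, the closest pair being 15.3 and 14.8, and overlapped with males. The log2 difference between the stages was 1.16 (SE 0.42, 95% confidence interval 0.25 to 2.07, limma adjusted p = 0.13).

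Taking the 8 genes by comparison, proestrus and diestrus libraries did not overlap for Per3, Nr1d2 and Clock, which was 3 of 8 members beside 26.6% of all genes. At an unadjusted p below 0.05 the same comparison held 3 members, beside 26.7% of all genes. With 8 genes, 3 is near the background, so these counts are not a result about the clock genes as a group. Without diestrus replicate 5 there were 5 members at an unadjusted p below 0.05, and the count over all 15607 genes was 5543 in place of 4169. Diestrus and males overlapped for 8 of 8 members, where 3.84% of all genes did not overlap, and limma called 0 members beside 0.128% of all genes. At an unadjusted p below 0.05 there were 4 members, Per1, Per2, Per3 and Nr1d2, all lower in diestrus, beside 9.62% of all genes. Per2, Per3 and Nr1d2 moved together over the 11 libraries, with r between 0.68 and 0.91. All 4 members were set against the same males, so they are not separate results. The 4 became 2 without diestrus replicate 2, diestrus replicate 3 or male replicate 4, where the count over all genes was 904, 966 and 926 in place of 1501. It was also 2 in a fit of these 2 groups alone, with 1186 genes, and with the edgeR-normalized table, with 914 genes. DESeq2 and edgeR's quasi-likelihood test each called 0 members between diestrus and males. DESeq2 called 0.78% of the genes it tested, and edgeR's test 0.141% of all genes.

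When all 7 females were compared with the 4 males, limma called 0 of 8 members beside 0.135% of all genes. Per1 and Per2 had an unadjusted p below 0.05, beside 4.83% of all genes. The count of members was 1 without diestrus replicate 2 or 4 or male replicate 2, 4 or 5, and 3 without proestrus replicate 3, in fits with 614 to 748 genes in place of 754. It was 1 with quantile normalization, with 763 genes, and with the edgeR-normalized table, with 409 genes. DESeq2 and edgeR's quasi-likelihood test each called 0 members. DESeq2 called 0.513% of the genes it tested, and edgeR's test 0.147% of all genes. No member separated females from males without overlap, beside 1.06% of all genes. The Nr1d2 difference was -0.05 (SE 0.54, 95% confidence interval -1.20 to 1.10, limma adjusted p = 0.9997), a mean over stages that lay on either side of the males. Dbp differed by 0.03 (SE 0.22, 95% confidence interval -0.45 to 0.51, limma adjusted p = 0.9997).

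Within each group, Dbp, Nr1d1 and Arntl put the libraries in related orders. Dbp and Nr1d1 ranked the libraries identically inside every group: diestrus replicates 3, 2, 4 and 5, proestrus replicates 3, 1 and 5, and male replicates 3, 2, 5 and 4, from high to low. Some of these ranks rest on near ties, such as Nr1d1 at 3024 and 3000.5 in diestrus replicates 3 and 2 and Dbp at 3484 and 3449 in proestrus replicates 1 and 5. Arntl put the diestrus libraries in the order 5, 4, 2 and 3 from high to low, and the proestrus libraries in the order 5, 1 and 3, in each case the reverse of Dbp. In males Arntl was lowest in replicate 3, then replicate 2, with replicates 4 and 5 nearly level at 769.5 and 775.

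Across the 11 libraries, Dbp and Nr1d1 had an r of 0.84 (rho 0.95), which was 0.86 after group means were removed and 0.83 without the 2 libraries farthest from the Dbp median. Nr1d1 and Arntl had an r of -0.71 (rho -0.63), which was -0.87 after group means were removed and -0.46 without the 2 libraries farthest from the Nr1d1 median. Dbp and Arntl had an r of -0.60 (rho -0.76), which was -0.74 within groups. Per3 and Nr1d2 had an r of 0.91 (rho 0.95), which was 0.83 within groups and 0.86 without the 2 farthest libraries. Other pairs of targets of the loop went both ways. The r was 0.82 for Per2 with Per3, 0.68 for Per2 with Nr1d2 and 0.39 for Per1 with Nr1d1. It was 0.19 for Per1 with Dbp and 0.18 for Per1 with Per2. Negative values were -0.76 for Per3 with Nr1d1, -0.72 for Per2 with Nr1d1, -0.60 for Dbp with Per3 and -0.60 for Dbp with Nr1d2. The r was also negative for Per2 with Dbp (-0.52), Per1 with Nr1d2 (-0.34) and Per1 with Per3 (-0.21). Arntl and Nr1d2, which encodes a repressor of Arntl, had an r of 0.42, which was 0.64 within groups. Many other genes were as close or as opposed, since Per3 ranked 648 of 11730 genes by r with Nr1d2 and Dbp ranked 10640 by r with Arntl.

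Male replicates 3 and 4 were the highest and the lowest library for Dbp and Nr1d1. Replicate 3 also had the lowest Arntl of the 11 libraries. Its Clock value was the lowest too, but rested on 5 reads, as many as in diestrus replicate 3. Male replicate 3 further had the lowest male Per2, Per3 and Nr1d2. Replicate 4 had the highest Per2 and Per3 of all libraries and the highest male Nr1d2, while its Arntl, at 769.5, lay in the middle of the libraries. The extremes of Nr1d2 were in females, proestrus replicate 1 and diestrus replicate 2. In diestrus, replicates 2 and 3 held the lower Nr1d2 and Per3 and the higher Nr1d1 and Dbp, and replicate 5 was at the other end. The hour at which each animal was killed is not given in the sources used here, and its part in these differences was not tested.

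The libraries were also placed on the first principal component of the 500 most variable genes with the 8 members left out, which held 24.7% of the variance. This measure was chosen after the members' values had been seen. Its scores were -16.0, -16.8, -6.83 and -0.74 in diestrus replicates 2, 3, 4 and 5, 15.1, 11.9 and 10.2 in proestrus replicates 1, 3 and 5, and -4.10, -12.1, 13 and 6.38 in male replicates 2, 3, 4 and 5. Proestrus libraries were all at the high end, and male replicates 4 and 5 lay with or near them. Nr1d2 followed this axis with an r of 0.994 (rho 0.982, n = 11), which was 0.984 within groups and 0.995 without the 2 farthest libraries. Ranked by the absolute r with the component, Nr1d2 was number 1 of 15607 genes, those that built the component included.

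**Figure D3:**
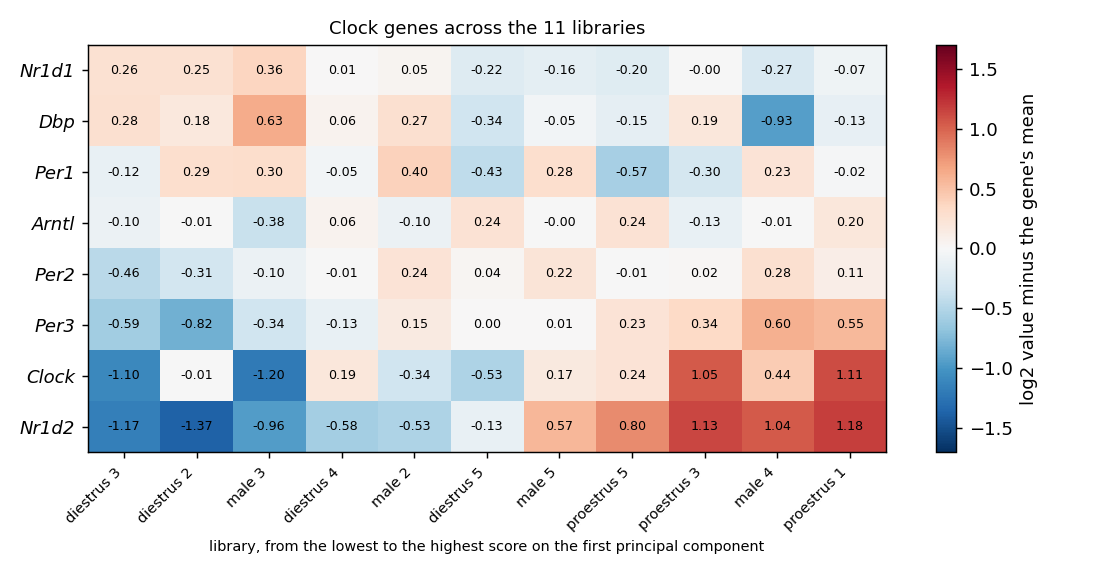
Log2 normalized counts of the 8 genes (vertical axis) in the 11 libraries (horizontal axis, from the lowest to the highest score on that component), each as the difference from the gene's mean over all libraries, on a colour scale with the difference printed in each cell. Male replicates 3 and 4 carry opposite colours for Dbp, Nr1d1, Per3 and Nr1d2.

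The other members followed the axis less closely. The r was 0.93 for Per3, 0.80 for Clock, 0.73 for Per2 and 0.45 for Arntl, and -0.31 for Per1, -0.62 for Dbp and -0.80 for Nr1d1. Large values were common. The share of all genes with an absolute r at or above that of the member was 5.09% for Per3 and 28.1% for Nr1d1. It was 28.7% for Clock, 37.7% for Per2, 49.7% for Dbp, 64.9% for Arntl and 77.0% for Per1. The percentage of each library's reads that fell on its top 20 genes moved with the same axis, at 13.4 to 13.9% in diestrus, 11.3 to 13.4% in proestrus and 12 to 13.4% in males. It had an r of -0.77 with Nr1d2, -0.80 with Per3, -0.75 with Per2 and -0.72 with Clock. Its part in the difference between the stages was not tested, nor was that of library size, which had an r of -0.40 with Nr1d2.

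**Figure D4:**
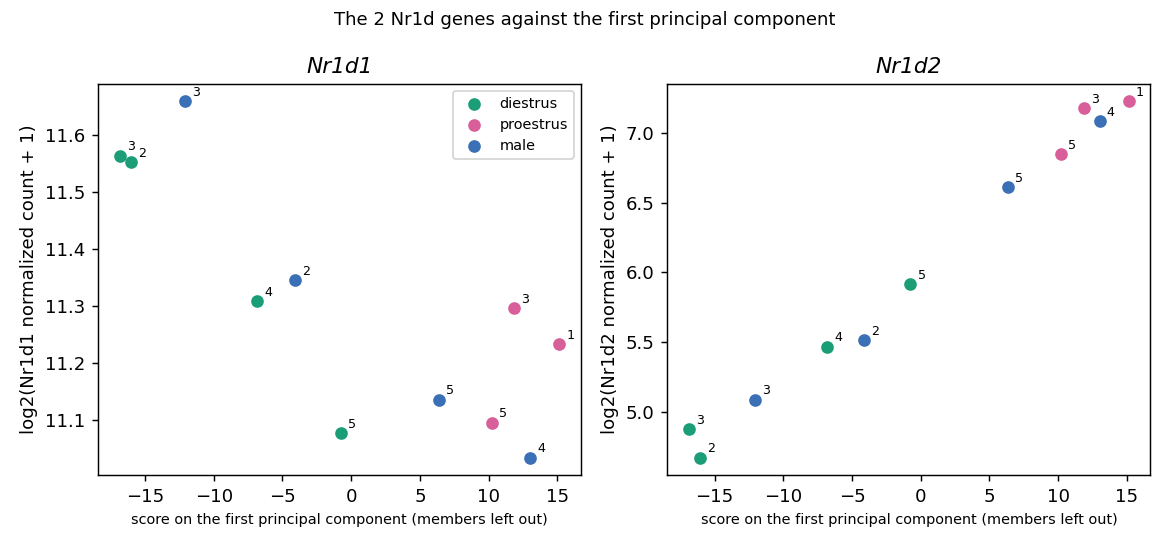
Log2 normalized counts of Nr1d1 and Nr1d2 (y axes) against the score of each library on the first principal component of the 500 most variable genes without the 8 members (x axis), with points coloured by group. Nr1d2 rises along the axis with an r of 0.99 and Nr1d1 declines with an r of -0.80, with the males spread over most of it.

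By the rule for likeness, the genes with the highest r over the 11 libraries were sought among 11730 genes with a mean normalized count of at least 50. For Dbp these were ENSRNOG00000000586 and ENSRNOG00000046143, each with an r of 0.91, and Nr1d1 ranked 22. For Arntl they were ENSRNOG00000007808, with an r of 0.99, and ENSRNOG00000014096, with an r of 0.93, while Nr1d1 ranked 11398. The part of the study's gene annotation held here names the first of these, ENSRNOG00000000586, as Gtf3c6, a subunit of a general transcription factor of RNA polymerase III, and does not cover the others.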

How the data were processed

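The authors trimmed single-end, unstranded poly(A) reads (Trimmomatic 0.32), aligned them with TopHat2 2.0.11 and Bowtie2 2.1.0 and counted uniquely assigned reads with HTSeq 0.6.1p1 (tools per the submitters' processing notes), and per the study's methods left out 1 proestrus library, not analysed here. The deposited values are a signal, counts divided by DESeq2 size factors (DESeq2 1.4.5). A second deposited table, normalized by edgeR 3.6.7, served as an alternative. Whole reads were recovered from the steps of the low values, and 100% of values came out whole within 0.01.

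Groups and replicate numbers followed the labels. log2(value + 1) was fitted in R 4.3.3 with limma 3.58.1 over all 15607 genes, the 3 groups sharing 1 spread, with females against males in a 2-group fit, and adjusted by Benjamini-Hochberg at 0.05. Fold changes on this scale understate changes of low genes. Intervals cover 95%. DESeq2 1.42.0 and edgeR 4.0.16 quasi-likelihood tests used the recovered reads. limma was tested on simulated data. The members and lists were chosen with earlier results of these data known. All 8 members are named, with the 2 genes most like Dbp and Arntl and, chosen after its values were seen, Nr1d2. Lists of 19 other clock genes and 22 cell type markers were to be used only where the deposited tables or the reference pair symbols with identifiers, which neither does. The study's gene annotation, held in part, covers 2 and 4 of them, and they were not used here. Depth, 15.9 to 24.6 M reads, limits Clock and Nr1d2 most.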

Additional observations from a re-analysis of the deposited data

Results flagged for a closer look

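Per2 in male replicate 3 lay apart from the other males: its gap to the nearest of them was 0.84 of the range of the group, above the critical value of Dixon's test for 4 samples. This was 1 of 16 groups of 4 values examined, and chance alone gives about 1 in 20. The effect of stage on Nr1d2 differed against the common males, with proestrus minus diestrus at 1.85 on the log2 scale (limma adjusted p = 0.0396), which is the same difference as that between the stages and whose call was lost in 8 of 11 fits that left out 1 library, with log2 differences there of 1.66 to 1.97 and 0 to 152 genes called in place of 395.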

How the results depend on the processing

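The Nr1d2 call between the stages held under TMM scaling, quantile normalization, the edgeR-normalized table, pseudocounts of 0.5 and 5, a mean of at least 50, a fit of these 2 groups alone and edgeR's quasi-likelihood test (adjusted p of limma or edgeR between 1.02e-07 and 0.0421, and 0.0452 with the mean filter, under which Clock was not tested). The number of members called between proestrus and diestrus was 1, was 2 with DESeq2, which added Per3, and ran from 0 to 2 when single libraries were left out, in fits that called from 0 genes (without proestrus replicate 1 or 3) to 1774 genes (without diestrus replicate 5) of 15607. For proestrus against males it was 0, beside 13 of 15607 genes. It became 1 with DESeq2 (Per1), beside 118 of 14093 genes. With the edgeR-normalized table it was also 1 (Nr1d2, limma adjusted p = 0.0498), beside 106 of 15724 genes. For diestrus and for all females against males it was 0 under every alternative run. Of 660 gene values under alternatives, 612 kept direction and side of the threshold, 6 newly passed it, 8 no longer passed it and 34 changed sign. The sign changes were all of differences that did not pass the test. With the edgeR-normalized table Arntl between the stages became -0.042 and Nr1d1 in females against males -0.0099. With quantile normalization Dbp in proestrus against males became 0.024. With edgeR's quasi-likelihood test and DESeq2, Dbp became -0.024 and -0.022 in diestrus against males and -0.060 and -0.058 in females against males, and Nr1d2 in females against males became 0.066 and 0.056. Nr1d1 in females against males was -0.0010 with edgeR's quasi-likelihood test. With single libraries left out, the log2 differences between the stages ran from -0.012 to 0.17 for Arntl and from -0.20 to 0.0014 for Dbp. Those for proestrus against males ran from -0.17 to 0.037 for Nr1d1 and from -0.31 to 0.21 for Dbp. Those for diestrus against males ran from -0.45 to 0.12 for Clock, from -0.0047 to 0.20 for Nr1d1 and from -0.24 to 0.28 for Dbp. Those for females against males ran from -0.076 to 0.13 for Nr1d1, from -0.27 to 0.25 for Dbp and from -0.38 to 0.29 for Nr1d2. The cause was not tested.

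The labels do not say whether replicate numbers pair the samples, and the main fit did not pair them. Same-numbered libraries had correlations of deviations from 0.0116 to 0.591, not all above 0.1. Of the diestrus and male libraries, 4 of 8 correlated best with their own number. These values do not settle whether the numbers pair the samples. With the replicate number as a block the members called stayed at 1 between the stages, with 517 genes called in place of 395. They stayed at 0 for proestrus against males (3 genes in place of 13) and diestrus against males (47 genes in place of 20). They also stayed at 0 for females against males (18 genes in place of 21). At an unadjusted p below 0.05 the block gave 5 members in place of 4 for diestrus against males (2138 genes in place of 1501) and 3 in place of 2 for females against males (698 genes in place of 754).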

Other observations

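The ratio of the Dbp to the Arntl normalized count, an output of the loop over its positive arm, varied more within males than between group values. It was 5.63, 6.39, 4.95 and 3.29 in diestrus replicates 2, 3, 4 and 5, 3.91, 6.13 and 3.77 in proestrus replicates 1, 3 and 5, and 6.36, 9.95, 2.60 and 4.77 in male replicates 2, 3, 4 and 5. The highest and the lowest ratio of all 11 libraries were both from males, and each stage lay inside the male range. The genes most like Nr1d2, sought after its values had been seen, were ENSRNOG00000003241 with an r of 0.996 and ENSRNOG00000010997 with an r of 0.989 over the 11 libraries.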
